A study of Mus musculus with 6 samples.

Results

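The enzymes and structural proteins that modify, read and remodel chromatin were compared between hepatic progenitor cells of Met fl/fl and Egfr fl/fl mouse livers. Genes were chosen by symbol: the deacetylases (Hdac, Sirt1 to Sirt7), lysine demethylases (Kdm1 to Kdm4), DNA methylation enzymes (Dnmt, Tet1 to Tet3), Polycomb and SET-domain genes (Ezh1, Ezh2, Suz12, Eed, Bmi1, Ehmt1, Setd), readers (Cbx1 to Cbx8, Brd1 to Brd9), remodelers (Smarc, Chd1 to Chd9) and high-mobility-group genes (Hmga, Hmgb, Hmgn). A probe also had to have a detection p-value under 0.05 on at least 3 arrays. Of 125 probes for 77 such symbols, 77 probes for 57 genes met this, out of 11578 probes for 8664 genes that met it among the 25697 on the array. The other 48 probes were not tested. Of these, 36 were detected on 0 arrays and 12 on 1 or 2.

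Chromatin modifiers add or remove acetyl and methyl groups on histone tails and on DNA. Reader proteins bind these marks, and remodelers of the SWI/SNF (Smarc) and Chd families use ATP to move or evict nucleosomes. In liver progenitors, Polycomb repressors are known for holding lineage genes in check, and high-mobility-group proteins loosen or bend the chromatin fibre.

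The 6 samples were 3 of genotype Met fl/fl and 3 of genotype Egfr fl/fl, all on a C57BL/6 background, each hybridised to 1 Illumina array of 1 colour. In both genotypes the allele is flanked by loxP sites, the labels name no Cre or treatment, and the series title describes the livers as controls. Nothing in the labels says that the replicates came from separate animals or cultures. A p-value sets the difference between the groups against the spread within them, and that spread may be technical. The slide of each array is not stated in the labels. Were the genotypes on separate slides, the effects of slide and genotype cannot be told apart.

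Between 43.8% and 45.3% of probes were detected on each array, and the mean deposited intensity per array lay between 241 and 398. The array of Egfr fl/fl replicate 3 was less like its group: its Pearson correlations with replicates 1 and 2 over all tested probes were 0.971 and 0.967, against 0.991 between those replicates. For the genes described below that were called, the difference against it alone is given too. Of 14 biliary and progenitor markers 10 were tested, with 0 higher in Met fl/fl cells, 5 lower and 5 not called, and Prom1 was detected on 0 arrays. The summed intensity of the list was 19049 to 21074 in Met fl/fl cells and 29593 to 32563 in Egfr fl/fl cells. Of 14 hepatocyte markers 4 were tested, 2 higher, 1 lower and 1 not called, while 8 including Alb were detected on 0 arrays. The hepatocyte list summed to 4406 to 5505 in Met fl/fl cells and 2747 to 3564 in Egfr fl/fl cells. Of 12 stellate cell and fibroblast markers 2 were tested (Acta2 and Dcn), both lower, and 7 including Col1a1, Col3a1 and Lrat were detected on 0 arrays. On the Met fl/fl arrays the mean log2 intensity of the 2 was 4.59 to 4.70, below the dimmest detected signals there (4.94 to 4.96). Their direction thus owes in part to the detection rule and is only a description. The stellate cell and fibroblast list summed to 59.9 to 69.2 in Met fl/fl cells and 470 to 882 in Egfr fl/fl cells, of which replicate 3 had 470. Of 11 tested genes of G2 and M phase, 9 were higher in Met fl/fl cells and 0 lower, and of 16 tested S-phase genes 0 were higher and 7 lower. The part of these markers in the results that follow was not tested. In bulk samples, fewer cells of a type and less RNA per cell cannot be told apart.

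The chromatin genes split evenly by direction. By the brightest probe of each gene, 11 of 57 genes were higher in Met fl/fl cells (19.3%, against 22.7% of all tested genes), 11 were lower (19.3%, against 18.5%) and 35 did not pass the test. The sirtuins and deacetylases that passed were higher, whereas most Smarc and high-mobility-group genes that passed were lower. Of the lower Smarc genes, Smarcd3 was detected on no Met fl/fl array, so its direction was fixed by the detection rule. Counts by class below are to be read beside the same 22.7% higher and 18.5% lower, and each class held few genes. Calls were made with limma at an adjusted p under 0.05, adjusted over all 11578 tested probes by the Benjamini-Hochberg method. The groups did not overlap for 27 of 57 genes (47.4%, against 52.0%). Over probes, 12 of 77 were higher (15.6%, against 21.6% of all tested probes) and 15 lower (19.5%, against 18.2%). They did not overlap for 34 of 77 probes (44.2%, against 50.1% of all tested probes). The median log2 difference, Met fl/fl minus Egfr fl/fl, was -0.14 over the 77 probes and 0.056 over all tested probes. The median absolute difference was 0.53 and 0.41. These shares lay near the background, and 9 genes (15.8%) were called with a difference of at least 2-fold, against 15.9% of all tested genes. The differences of the 57 genes ran between -2.12 for Ezh2 and 1.40 for Smarcal1. A probe detected in only 1 group passed the detection rule through that group alone, which fixes the direction in which it could differ: this held for 2 of the 77, Smarcd3 and Hdac11, which were detected on 3 Egfr fl/fl arrays and on 0 Met fl/fl arrays.

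The regulatory sequence just before the start of 6 genes is shown here, for 5 of the 6 genes whose call held under every alternative run (Smarcal1, Sirt3, Sirt7, Smarcd3, Hmga1) and for Ezh2, which had the largest difference and a call that did not hold. Each is the 150 bases before the RefSeq start on mouse build GRCm38.p6, read 5′ to 3′ on the gene's strand. Capitals mark matches on either strand to any of 4 motifs, and neighbouring matches can overlap. The GC box was searched as GGGCGG. The CCAAT box was searched by the letters of its name. The ETS-type motif was searched as CCGGAAG. The E2F-type motif was searched as TTTGGCGC.
Smarcal1, chr1:72583101-72583250, plus strand: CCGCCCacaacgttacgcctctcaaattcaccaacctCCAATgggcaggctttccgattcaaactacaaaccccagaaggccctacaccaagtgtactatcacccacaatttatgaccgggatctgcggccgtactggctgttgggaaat
Sirt3, chr7:140882310-140882459, minus strand: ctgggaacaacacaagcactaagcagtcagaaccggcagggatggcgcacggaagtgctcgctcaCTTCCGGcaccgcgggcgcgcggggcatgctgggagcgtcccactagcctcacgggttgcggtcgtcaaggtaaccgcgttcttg
Sirt7, chr11:120625015-120625164, minus strand: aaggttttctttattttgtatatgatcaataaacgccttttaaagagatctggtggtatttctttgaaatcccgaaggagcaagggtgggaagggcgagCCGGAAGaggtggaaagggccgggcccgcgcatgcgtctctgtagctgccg
Smarcd3, chr5:24602003-24602152, minus strand: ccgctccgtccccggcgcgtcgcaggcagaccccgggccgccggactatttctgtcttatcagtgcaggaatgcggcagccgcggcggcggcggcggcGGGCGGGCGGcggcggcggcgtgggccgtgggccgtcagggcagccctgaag
Hmga1, chr17:27556424-27556573, plus strand: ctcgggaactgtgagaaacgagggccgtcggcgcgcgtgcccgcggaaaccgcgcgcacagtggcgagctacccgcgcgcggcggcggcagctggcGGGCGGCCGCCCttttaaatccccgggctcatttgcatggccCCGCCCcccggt
Ezh2, chr6:47595031-47595180, minus strand: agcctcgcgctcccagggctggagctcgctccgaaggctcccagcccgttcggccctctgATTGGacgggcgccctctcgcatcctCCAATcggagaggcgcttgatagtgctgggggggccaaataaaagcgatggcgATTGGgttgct
The stretches shown for Sirt3 and Sirt7 hold 1 ETS-type motif each, those of Smarcd3 and Hmga1 hold GC boxes and long runs of C and G, and that of Ezh2 holds 3 CCAAT boxes. Sirt3 and Hmga1 each have a second RefSeq start that is not printed. The 150 bases before that of Sirt3 hold 3 GC boxes and no ETS-type motif, and those of Hmga1 hold 4 GC boxes. Promoter windows were available for 48 of the 57 genes, with 66 windows of 300 bases (250 before the start and 50 after). In these windows GGGCGG was found in 71.2%, CCAAT in 47.0%, CCGGAAG in 16.7% and TTTGGCGC in 3.03%. Among 8591 windows of all tested genes these shares were 64.1%, 38.3%, 18.4% and 0.815%. The median number of CpG dinucleotides was 24.5 per window of the chromatin genes and 21.0 per window of all tested genes. A match describes these letters and is not evidence that a factor binds.

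Among the histone deacetylases, 9 genes were tested, 3 were higher in Met fl/fl cells and 0 were lower. Hdac6, a mostly cytoplasmic enzyme that deacetylates tubulin, had normalized log2 intensities of 7.32, 7.08 and 7.34 in Met fl/fl cells, against 5.90, 5.77 and 6.65 in Egfr fl/fl cells. All 3 Met fl/fl values lay above all Egfr fl/fl values, and Egfr fl/fl replicate 3 was the nearest to them. The difference was 1.14 ± 0.25 (SE, adjusted p = 0.0052), and it was 1.41 without Egfr fl/fl replicate 3 (adjusted p = 6.1e-05) and 0.60 against replicate 3 alone (adjusted p = 0.097). Hdac8, a class I enzyme known for deacetylating the cohesin ring, measured 6.59, 7.09 and 7.22 in Met fl/fl cells, against 5.83, 5.20 and 6.56 in Egfr fl/fl cells. Its groups did not overlap, but the Egfr fl/fl values were spread widely, with replicate 3 only just below the lowest Met fl/fl value. The difference was 1.10 ± 0.33 (SE, adjusted p = 0.022), and it missed the threshold without Met fl/fl replicate 2 or 3 or Egfr fl/fl replicate 1 or 2 (adjusted p between 0.0611 and 0.0937). Against replicate 3 alone it was 0.40 (adjusted p = 0.34). Hdac10, known as a polyamine deacetylase, measured 6.39, 6.74 and 6.87 in Met fl/fl cells, against 6.24, 5.64 and 5.91 in Egfr fl/fl cells. The lowest Met fl/fl value lay close above the highest Egfr fl/fl value. Its difference of 0.74 ± 0.22 (SE, adjusted p = 0.025) missed the threshold without Met fl/fl replicate 2 or 3 or Egfr fl/fl replicate 2 (adjusted p between 0.0851 and 0.0995). Hdac10 differed by 0.76 (adjusted p = 0.058) when set against replicate 3 alone.

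The class I corepressor enzymes Hdac2 and Hdac3 did not pass the test, and no probe carried the symbol Hdac1. Hdac2 measured 11.18, 10.63 and 10.83 in Met fl/fl cells, against 11.48, 11.52 and 11.05 in Egfr fl/fl cells, and its groups overlapped through replicate 3. The difference was -0.47 (adjusted p = 0.055). Hdac3, the catalytic subunit of the NCoR and SMRT complexes, differed by -0.057 (adjusted p = 0.71), with every array between 10.40 and 10.52. The class IIa enzymes Hdac4, Hdac5 and Hdac7, which bind MEF2 factors, each had their highest value on Egfr fl/fl replicate 3. Hdac5 measured 9.91, 10.19 and 10.22 in Met fl/fl cells, against 9.48, 9.18 and 10.29 in Egfr fl/fl cells. The other Egfr fl/fl arrays were the lowest, and the difference over all arrays was 0.46 (adjusted p = 0.17). The difference was 0.78 without Egfr fl/fl replicate 3 (adjusted p = 0.00076) and -0.18 against replicate 3 alone (adjusted p = 0.54). Hdac4 measured 5.89, 5.54 and 6.05 in Met fl/fl cells, against 4.74, 4.71 and 6.06 in Egfr fl/fl cells. It was detected on 3 Met fl/fl arrays but, of the Egfr fl/fl arrays, only on replicate 3, so no difference without that replicate is given, and the difference over all arrays was not called (adjusted p = 0.15). For Hdac7 the difference was 0.83 without Egfr fl/fl replicate 3 (adjusted p = 0.00095) and -0.25 against replicate 3 alone (adjusted p = 0.43). Hdac11, the class IV enzyme, was not well above background on any Met fl/fl array and did not pass the test (adjusted p = 0.071).

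Of 6 sirtuins, which are NAD-dependent deacylases, 3 were higher in Met fl/fl cells and 0 were lower. Sirt3, the main mitochondrial deacetylase, measured 8.88, 9.06 and 9.13 in Met fl/fl cells, against 7.95, 8.08 and 7.997 in Egfr fl/fl cells. The Egfr fl/fl arrays, replicate 3 included, were close together and well below the Met fl/fl arrays. The difference was 1.02 ± 0.15 (SE, adjusted p = 0.00048), and it was 1.02 without Egfr fl/fl replicate 3 (adjusted p = 0.00012) and 1.03 against replicate 3 alone (adjusted p = 0.0031). Sirt7, a nucleolar sirtuin linked to ribosomal gene transcription, measured 11.05, 11.38 and 11.45 in Met fl/fl cells, against 10.36, 10.22 and 10.53 in Egfr fl/fl cells. Again the groups were apart, with replicate 3 the highest of the Egfr fl/fl arrays. The difference was 0.92 ± 0.14 (SE, adjusted p = 0.00077), and 0.76 (adjusted p = 0.013) against replicate 3 alone. Sirt2, which deacetylates tubulin in the cytoplasm, measured 8.49, 8.34 and 8.38 in Met fl/fl cells, against 7.47, 7.86 and 7.81 in Egfr fl/fl cells. Its groups did not overlap, and the difference was 0.69 ± 0.17 (SE, adjusted p = 0.0091). Against replicate 3 alone it was 0.59 (adjusted p = 0.059). Sirt1, the best-known nuclear sirtuin, differed by -0.45 (adjusted p = 0.12), Sirt5, a mitochondrial desuccinylase, by -0.41 (adjusted p = 0.17), and Sirt6, a chromatin-bound sirtuin, by 8.5e-05 (adjusted p = 0.9999).

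DNA methylation enzymes were represented by 2 tested genes. Dnmt3b, a de novo methyltransferase, measured 5.20, 5.36 and 5.16 in Met fl/fl cells, against 5.79, 6.01 and 5.81 in Egfr fl/fl cells. All Egfr fl/fl values lay above all Met fl/fl values at a low level. The difference was -0.63 ± 0.17 (SE, adjusted p = 0.013), and it missed the threshold without Met fl/fl replicate 3 (adjusted p = 0.055). Dnmt3b differed by -0.57 (adjusted p = 0.092) when set against replicate 3 alone. Dnmt1, the maintenance methyltransferase, measured 9.09, 9.12 and 9.34 in Met fl/fl cells, against 9.19, 8.95 and 9.37 in Egfr fl/fl cells. Its groups overlapped fully, with a difference of 0.012 (adjusted p = 0.96). The probes of Dnmt3a and Dnmt3l were not detected on enough arrays to be tested.

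Of 12 Polycomb and SET-domain genes, 2 were higher in Met fl/fl cells and 2 were lower. Setd1b, a catalytic subunit of the complexes that methylate histone H3 at active promoters, measured 8.92, 8.85 and 9.03 in Met fl/fl cells, against 7.63, 7.48 and 8.56 in Egfr fl/fl cells. Its groups did not overlap, and replicate 3 lay nearer the Met fl/fl arrays than the other Egfr fl/fl arrays. The difference was 1.04 ± 0.26 (SE, adjusted p = 0.0097), and 0.37 (adjusted p = 0.21) against replicate 3 alone. Its paralogue Setd1a measured 8.42, 8.59 and 8.59 in Met fl/fl cells, against 7.63, 7.72 and 8.27 in Egfr fl/fl cells. Again replicate 3 was the highest Egfr fl/fl array, just under the Met fl/fl values. The difference was 0.66 ± 0.20 (SE, adjusted p = 0.022), and it missed the threshold without Met fl/fl replicate 2 or 3 or Egfr fl/fl replicate 1 or 2 (adjusted p between 0.0746 and 0.0942). Setd1a differed by 0.26 (adjusted p = 0.4) when set against replicate 3 alone. Setd5 differed by 0.62 (adjusted p = 0.067) over all arrays and by 0.89 without replicate 3 (adjusted p = 0.00093).

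Ezh2, the catalytic subunit of Polycomb repressive complex 2, had the largest difference of the 57 genes and also the widest spread between Egfr fl/fl arrays. Its brightest probe measured 5.80, 5.52 and 5.15 in Met fl/fl cells, against 8.62, 8.75 and 5.45 in Egfr fl/fl cells. Egfr fl/fl replicates 1 and 2 were far above the Met fl/fl arrays, while replicate 3 lay among them. The difference was -2.12 ± 0.71 (SE, adjusted p = 0.038), and it was -3.19 without Egfr fl/fl replicate 3 (adjusted p = 1.6e-07) and 0.04 against replicate 3 alone (adjusted p = 0.94). It also missed the threshold without Met fl/fl replicate 1, 2 or 3 or Egfr fl/fl replicate 1 or 2 (adjusted p between 0.0802 and 0.136). A second Ezh2 probe measured 5.38, 5.00 and 5.51 in Met fl/fl cells, against 4.88, 4.93 and 4.63 in Egfr fl/fl cells. This dim probe ran the other way, by 0.49 (adjusted p = 0.054), and was detected on 3 Met fl/fl arrays and 1 Egfr fl/fl array, so the 2 probes of Ezh2 disagreed in direction. Of its core partners in the complex, Suz12 measured 11.05, 10.78 and 11.01 in Met fl/fl cells, against 10.93, 10.98 and 10.73 in Egfr fl/fl cells. Its difference was 0.07 (adjusted p = 0.69), and that of Eed was -0.21 (adjusted p = 0.38), both with overlapping groups.

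Bmi1, a subunit of Polycomb repressive complex 1, measured 5.74, 4.90 and 4.84 in Met fl/fl cells, against 6.35, 6.75 and 5.42 in Egfr fl/fl cells. Met fl/fl replicate 1 lay above Egfr fl/fl replicate 3, so the groups overlapped. It was detected on 3 Egfr fl/fl arrays but on only 1 Met fl/fl array, so the differences that follow rest partly on signals at background. The difference was -1.01 ± 0.35 (SE, adjusted p = 0.041), and it was -1.39 without Egfr fl/fl replicate 3 (adjusted p = 0.00091) and -0.26 against replicate 3 alone (adjusted p = 0.6). It missed the threshold without Met fl/fl replicate 2 or 3 or Egfr fl/fl replicate 1 or 2 (adjusted p between 0.114 and 0.154). Setd8 (currently Kmt5a), which monomethylates histone H4, had 3 tested probes that all pointed lower. Its brightest probe differed by -0.19 (adjusted p = 0.48), and the other probes were called lower, at -0.57 (adjusted p = 0.021) and -0.60 (adjusted p = 0.014). The remaining SET-domain genes Setd3, Setd6, Setdb1 and Setdb2 differed by between -0.19 and 0.13 and did not pass the test.

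No Cbx reader passed the test with all arrays, in 4 genes tested, although 3 of them had groups that did not overlap (against 52.0% of all tested genes). At an unadjusted p under 0.05, which 50.2% of all tested genes reached, the count was 3 of 4. Cbx5, the heterochromatin protein HP1 alpha, measured 6.87, 6.69 and 6.46 in Met fl/fl cells, against 8.14, 8.43 and 6.23 in Egfr fl/fl cells. Replicate 3 was the lowest of the 6 arrays and the other Egfr fl/fl arrays were the highest. The difference was -0.92 ± 0.47 (SE, adjusted p = 0.15), and it was -1.61 without Egfr fl/fl replicate 3 (adjusted p = 2.2e-05) and 0.45 against replicate 3 alone (adjusted p = 0.24). Cbx7, a Polycomb chromodomain protein, measured 5.48, 5.00 and 5.34 in Met fl/fl cells, against 5.68, 5.64 and 6.58 in Egfr fl/fl cells. Here replicate 3 was the highest array. The difference was -0.69 (adjusted p = 0.062) over all arrays. It was -0.38 without Egfr fl/fl replicate 3 (adjusted p = 0.13) and -1.30 against replicate 3 alone. Cbx2, a second Polycomb chromodomain protein, differed by -0.58 (adjusted p = 0.06) over all arrays. Its difference was -0.34 without Egfr fl/fl replicate 3 (adjusted p = 0.13) and -1.04 against replicate 3 alone. Cbx8, another member of that family, differed by 0.45 (adjusted p = 0.066).

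Among 4 Brd readers, which bind acetylated histones through bromodomains, 1 was higher in Met fl/fl cells. Brd9, a subunit of a SWI/SNF variant, measured 9.39, 9.62 and 9.61 in Met fl/fl cells, against 8.84, 8.74 and 8.97 in Egfr fl/fl cells. The groups did not overlap, and the difference was 0.69 ± 0.14 (SE, adjusted p = 0.0036). Against replicate 3 alone it was 0.57 (adjusted p = 0.051). A second Brd9 probe differed by 0.73 (adjusted p = 0.015). Brd2 differed by -0.36 (adjusted p = 0.1) and Brd8 by 0.20 (adjusted p = 0.46).

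Of 10 Smarc genes, 1 was higher in Met fl/fl cells and 4 were lower. Smarcal1, an annealing helicase that works at stalled replication forks, measured 7.63, 7.87 and 7.62 in Met fl/fl cells, against 6.16, 6.16 and 6.61 in Egfr fl/fl cells. Every Met fl/fl array was above every Egfr fl/fl array, and replicate 3 was the highest Egfr fl/fl array. The difference was 1.40 ± 0.20 (SE, adjusted p = 0.00047), the largest rise among the 57 genes, and it was 1.54 without Egfr fl/fl replicate 3 (adjusted p = 1.9e-05) and 1.10 against replicate 3 alone (adjusted p = 0.0052). The genes that fell include 3 subunits of SWI/SNF complexes. Smarcd3, a subunit used in muscle and other differentiated cells, measured 4.65, 4.50 and 4.69 in Met fl/fl cells, against 6.37, 6.21 and 5.95 in Egfr fl/fl cells. It was detected on 3 Egfr fl/fl arrays and on no Met fl/fl array, so its level in Met fl/fl cells is only bounded: it was at least 2.34-fold lower there, against the dimmest signal counted as detected on each array. Since it passed the detection rule through the Egfr fl/fl arrays alone, its direction was fixed by that rule, and it is counted among the 4 only as a description.

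Smarce1, a subunit with a high-mobility-group DNA-binding domain, measured 8.93, 8.55 and 8.47 in Met fl/fl cells, against 9.76, 9.79 and 9.47 in Egfr fl/fl cells. The groups were well apart on all arrays. The difference was -1.02 ± 0.17 (SE, adjusted p = 0.001), -0.82 (adjusted p = 0.02) against replicate 3 alone, and a second probe gave -1.30 (adjusted p = 0.00012). Smarcc1, a core scaffold subunit, measured 7.50, 7.88 and 7.31 in Met fl/fl cells, against 8.05, 8.17 and 8.48 in Egfr fl/fl cells. Its groups did not overlap. The difference was -0.67 ± 0.20 (SE, adjusted p = 0.024), and it missed the threshold without Met fl/fl replicate 1 or 3 or Egfr fl/fl replicate 2 (adjusted p between 0.0503 and 0.103). Smarcc1 differed by -0.91 (adjusted p = 0.022) when set against replicate 3 alone. The paralogous scaffold Smarcc2 measured 7.34, 7.46 and 7.48 in Met fl/fl cells, against 5.43, 6.33 and 7.38 in Egfr fl/fl cells. Its Egfr fl/fl arrays spread over almost 2 log2 units and replicate 3 lay among the Met fl/fl arrays. The difference was 1.05 (adjusted p = 0.059) and it was 1.55 without Egfr fl/fl replicate 3 (adjusted p = 0.0002) and 0.043 against replicate 3 alone (adjusted p = 0.92). Smarcad1, a remodeler that keeps heterochromatin silent through replication, measured 7.05, 6.52 and 6.85 in Met fl/fl cells, against 7.28, 7.72 and 7.48 in Egfr fl/fl cells. The groups did not overlap, and the difference of -0.68 ± 0.21 (SE, adjusted p = 0.026) missed the threshold without Met fl/fl replicate 2 or 3 or Egfr fl/fl replicate 2 (adjusted p between 0.0716 and 0.123). Smarcad1 differed by -0.67 (adjusted p = 0.09) when set against replicate 3 alone.

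The ATPase subunits of SWI/SNF did not pass the test. Smarca4 (BRG1) measured 7.90, 8.45 and 8.62 in Met fl/fl cells, against 7.26, 7.01 and 8.35 in Egfr fl/fl cells. Replicate 3 fell inside the Met fl/fl range. Its difference was 0.78 (adjusted p = 0.084), and it was 1.19 without Egfr fl/fl replicate 3 (adjusted p = 0.00053) and -0.028 against replicate 3 alone (adjusted p = 0.95). Smarca2 (BRM), the alternative ATPase, differed by 0.044 (adjusted p = 0.81). The subunits Smarcb1 and Smarcd2 differed by -0.30 (adjusted p = 0.12) and -0.20 (adjusted p = 0.3).

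Of 4 Chd remodelers none passed the test by the brightest probe. At an unadjusted p under 0.05, reached by 50.2% of all tested genes, the count was 2 of 4. Chd4, the ATPase of the NuRD deacetylase complex, measured 9.44, 10.05 and 10.10 in Met fl/fl cells, against 8.56, 8.41 and 9.88 in Egfr fl/fl cells. Replicate 3 again lay among the Met fl/fl values. The difference was 0.91 ± 0.35 (SE, adjusted p = 0.059), and it was 1.38 without Egfr fl/fl replicate 3 (adjusted p = 6.0e-05) and -0.018 against replicate 3 alone (adjusted p = 0.97). The other Chd4 probes, detected on 4 arrays each, pointed lower, at -0.94 (adjusted p = 0.1) and -0.62 (adjusted p = 0.19), so the direction for Chd4 depends on the probe. Without replicate 3 these probes were called lower, at -1.54 (adjusted p = 6.2e-05) and -1.07 (adjusted p = 0.0018), opposite to the brightest probe. Chd1l, a remodeler activated by poly(ADP-ribose), differed by 0.53 (adjusted p = 0.06), Chd8 by 0.36 (adjusted p = 0.16) and Chd1 by 0.0025 (adjusted p = 0.99).

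Among 6 tested high-mobility-group genes, 1 was higher in Met fl/fl cells and 4 were lower. Hmga1, an AT-hook protein abundant in growing and undifferentiated cells, measured 9.36, 9.36 and 9.12 in Met fl/fl cells, against 10.09, 9.92 and 10.14 in Egfr fl/fl cells. All Met fl/fl values were below all Egfr fl/fl values, and replicate 3 was the highest array. The difference was -0.77 ± 0.14 (SE, adjusted p = 0.0016), and -0.86 (adjusted p = 0.007) against replicate 3 alone. A second, dimmer probe of Hmga1 pointed the same way without passing the test, at -0.43 (adjusted p = 0.18). Hmgn3, a nucleosome-binding protein, measured 10.06, 9.81 and 9.73 in Met fl/fl cells, against 10.94, 10.93 and 10.34 in Egfr fl/fl cells. Its groups did not overlap, with a difference of -0.87 ± 0.18 (SE, adjusted p = 0.0037) and -0.83 (adjusted p = 0.0061) by a second probe. Against replicate 3 alone they were -0.47 (adjusted p = 0.098) and -0.50 (adjusted p = 0.12). Hmgb2l1 (currently Hmgxb4) measured 8.36, 8.20 and 8.21 in Met fl/fl cells, against 8.86, 9.02 and 8.69 in Egfr fl/fl cells. All of its Met fl/fl values were the lower ones. The difference was -0.60 ± 0.15 (SE, adjusted p = 0.011), and it missed the threshold without Met fl/fl replicate 2 or Egfr fl/fl replicate 2 (adjusted p = 0.052). Versus replicate 3 alone it was -0.44 (adjusted p = 0.16).

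The nucleosome-binding paralogues Hmgn1 and Hmgn2 were called in opposite directions. Hmgn1 measured 12.84, 12.41 and 12.38 in Met fl/fl cells, against 13.18, 13.19 and 12.83 in Egfr fl/fl cells. Met fl/fl replicate 1 lay just above Egfr fl/fl replicate 3. The difference was -0.53 ± 0.15 (SE, adjusted p = 0.021), and it missed the threshold without Met fl/fl replicate 2 or 3 or Egfr fl/fl replicate 1 or 2 (adjusted p between 0.0748 and 0.0891). Versus replicate 3 alone it was -0.29 (adjusted p = 0.33). Hmgn2 measured 12.68, 12.32 and 12.14 in Met fl/fl cells, against 11.95, 11.98 and 11.42 in Egfr fl/fl cells. All Met fl/fl arrays were higher, and replicate 3 was the lowest array. The difference was 0.59 ± 0.18 (SE, adjusted p = 0.025), and it missed the threshold without Met fl/fl replicate 1 or 2 (adjusted p between 0.0618 and 0.0877). Versus replicate 3 alone it was 0.96 (adjusted p = 0.0051). Hmgb2, a DNA-bending protein abundant in dividing cells, measured 8.70, 8.57 and 8.37 in Met fl/fl cells, against 9.31, 9.32 and 8.28 in Egfr fl/fl cells. Replicate 3 was the lowest array, and the difference was -0.42 (adjusted p = 0.23). It was -0.77 without Egfr fl/fl replicate 3 (adjusted p = 0.0009) and 0.27 against replicate 3 alone (adjusted p = 0.41).

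The calls among the chromatin genes depended on the arrays used, Egfr fl/fl replicate 3 among them. Leaving out Met fl/fl replicate 2 or 3 or Egfr fl/fl replicate 2 lost 9 calls each among the 30 genes named. A comparison against 1 array is less precise, so a call can be lost there while the difference stays alike. Hdac10 differed by 0.74 over all arrays and by 0.76 against replicate 3 alone. Without Egfr fl/fl replicate 3, 46 of 77 probes passed the test, 23 in each direction (59.7%, against 50.4% of all tested probes). With replicate 3 alone for Egfr fl/fl, assumed to vary as the Met fl/fl arrays do, 13 passed, 4 higher and 9 lower (16.9%, against 27.0%). By gene, 36 of 57 passed without it (20 higher, 16 lower, 63.2% against 51.3% of all tested genes) and 10 with it alone (4 higher, 6 lower, 17.5% against 28.3%). Called in both of these and in the comparison of all 6 arrays were 8 genes (14.0%, against 24.2%): Sirt3, Sirt7, Smarcal1 and Hmgn2 were higher in Met fl/fl cells, and Smarcc1, Smarcd3 (detected on 0 Met fl/fl arrays), Smarce1 and Hmga1 were lower. Called without replicate 3 and in neither of the others were 14 genes (24.6%, against 11.3%), among them Hdac2, Hdac4, Hdac5, Hdac7, Sirt5, Setd5, Cbx5, Brd2, Smarca4, Smarcc2, Chd1l, Chd4 and Hmgb2. Without replicate 3, Hdac4 was detected on Met fl/fl arrays alone, so its call there is only a description. Replicate 3 was nearer the Met fl/fl mean than the mean of replicates 1 and 2 for 40 of the 77 probes (51.9%), against 41.8% of all tested probes. The median absolute gap of replicate 3 from the mean of replicates 1 and 2 was 0.39 over the 77 probes and 0.29 over all tested probes. The gap between replicates 1 and 2 was 0.13 and 0.16. No explanation for the position of replicate 3 was tested.

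More than 1 probe was tested for 16 genes. In 3 of them (Brd9, Hmgn3, Smarce1) every tested probe was called in 1 direction. In 4 (Ezh2, Hmga1, Hmgb2l1, Setd8) some were called, and in 9 none. Over all arrays, probes called in opposite directions were found in 0 genes, and without Egfr fl/fl replicate 3 in 1, Chd4. The probes of Hdac5 differed by between 0.46 and 0.58 and those of Chd1 by between 0.0025 and 0.23, all above 0. Those of Sirt5 lay between -0.41 and -0.14, those of Setd6 between -0.25 and -0.19 and those of Hmgb2l1 between -0.60 and -0.11, all below 0. Probes on both sides of 0, none of them called, were found among others for Brd2 (between -0.36 and 0.052), Sirt6 (between -0.18 and 8.5e-05) and Smarca2 (between -0.16 and 0.044). Symbols with no tested probe numbered 20, among them Brd1, Cbx3, Cbx6, Chd5, Chd6, Dnmt3a, Dnmt3l, Ehmt1, Ezh1, Hdac9, Hmga2, Hmgb1, Hmgb3, Hmgb4, Setd2, Setd4, Setd7, Smarca1 and Smarcd1. Nothing is said here of their levels beyond that limit of detection.

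Lysine demethylases carried 0 symbols of the form Kdm1 to Kdm4, because the array names them by older symbols. Matched to current RefSeq symbols, 12 further tested probes belong to Kdm1a, Kdm1b, Kdm2b, Kdm3a, Kdm4a, Kdm4b, Kdm4c and Hmgn5. Of these probes 1 was higher (8.33%, against 21.6% of all tested probes), 1 was lower (8.33%, against 18.2%) and 10 were not called. Kdm2b (Fbxl10 on the array), a CpG-island-binding demethylase, measured 7.38, 7.36 and 7.31 in Met fl/fl cells, against 7.85, 7.96 and 7.99 in Egfr fl/fl cells. Its groups did not overlap and the difference was -0.58 ± 0.16 (SE, adjusted p = 0.016), and -0.64 against replicate 3 alone (adjusted p = 0.062). The probe called higher was the dimmer of 2 for Kdm4b (Jmjd2b), at 0.78 (adjusted p = 0.037). The brighter one differed by 0.06 (adjusted p = 0.85). Under current symbols Setd8 and Hmgb2l1 leave the set, and 84 probes were tested. Of the 84, 13 were higher (15.5%, against 21.6% of all tested probes) and 13 lower (15.5%, against 18.2%).

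Other chromatin genes outside these symbols were read for context: of 104 tested, 18 were higher in Met fl/fl cells (17.3%, against 22.7% of all tested genes), 15 were lower (14.4%, against 18.5%) and 71 did not pass. Rbbp7, a histone-binding subunit of Polycomb repressive complex 2 and of deacetylase complexes, measured 6.55, 6.58 and 5.66 in Met fl/fl cells, against 9.61, 9.83 and 7.98 in Egfr fl/fl cells. Egfr fl/fl replicate 3 lay between the groups' other arrays, and the difference was -2.88 ± 0.44 (SE, adjusted p = 0.00071), and -1.72 (adjusted p = 0.0029) against replicate 3 alone. Aebp2, an accessory subunit of the same Polycomb complex, was also lower, by -1.16 (adjusted p = 0.022). Its difference against replicate 3 alone was -0.32 (adjusted p = 0.43), and it was detected on 2 of 3 Met fl/fl arrays. Bcl7a, a SWI/SNF subunit, fell by 1.40 on the log2 scale (adjusted p = 0.00038), and its difference against replicate 3 alone was -1.72 (adjusted p = 0.00025). Among those higher, Mbd4, a glycosylase that repairs deaminated methylcytosine, differed by 1.04 (adjusted p = 0.0018), and by 0.72 against replicate 3 alone. Mbd4 was detected on 2 of 3 Egfr fl/fl arrays, so its difference rests partly on signal at background. Dot1l, a histone H3 methyltransferase of transcribed genes, differed by 1.03 (adjusted p = 0.021), and the corepressor Ncor1 by 0.94 (adjusted p = 0.012). Against replicate 3 alone, Dot1l differed by 0.38 (adjusted p = 0.38) and Ncor1 by 0.32 (adjusted p = 0.28).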

How the data were processed

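Transcript levels were measured on 6 arrays, 3 per genotype, grouped by the sample labels. Biotin-labelled cRNA was prepared from total RNA, per the labels' protocols. The submitters' processing notes name GenomeStudio 2011.1 and no array model. The deposited non-normalized intensity fell below 0 for 26.9% to 31.1% of probes per array, and a detection p-value stood beside each intensity, per the file headers. A deposited normalized intensity table served as an alternative and for marker sums over all probes of a list (values below 0 set to 0).

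Background was corrected by normexp, with 798 negative controls whose level was read off the detection p-values, and an offset of 16, followed by quantile normalization and log2 (neqc, limma 3.58.1, R 4.3.3). Probes detected (p under 0.05) on at least 3 arrays were fitted by lmFit, then by eBayes allowing for a variance trend, checked on simulated data. The brightest tested probe represented a gene. Each log2 difference has Met fl/fl first. A bound replaced an undetected level by the lowest signal detected on that array, where higher.

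Symbols were updated through RefSeq (GRCm38.p6): 14307 were current, 2906 were updated and 925 were kept as given. Promoters are from RefSeq of that build. Members and lists were chosen with earlier results of these data known. In each class up to 3 genes per direction were named, by size among called genes whose groups did not overlap, or the 1 largest where none passed. Paralogues, complex partners and other probes were named beside them, and Ezh2, Bmi1, Smarcc1, Smarcc2, Smarca4, Hmgn1, Hmgb2, Hdac5, Cbx7 and Setd8 were named after their values were seen. Alternatives covered scaling, background, detection filter, variance model, array weights, a replicate block, probe summary, symbol rule and each array left out. Values of some single genes are not reported here.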

Additional observations from a re-analysis of the deposited data

How the results depend on the processing

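The 30 named genes were recomputed under 19 alternatives, 564 values in all. Of these 477 kept their direction and their side of the threshold, 57 lost a call, 23 gained one and 7 changed sign. Apart from dropped arrays, calls were lost with median scaling (Hdac10, Hmgn1), cyclic loess (Bmi1) and no detection filter (Bmi1, Dnmt3b). Others were lost with no variance trend (Ezh2, Hmgn2) and with the mean of a gene's probes (Ezh2, Hmgb2l1). Median scaling also gained 2 calls, and the mean of probes gained 1. Hmga1, Sirt3, Sirt7, Smarcal1, Smarcd3 and Smarce1 were called in every alternative in which they could be tested, although Smarcd3 was detected on 0 Met fl/fl arrays. With replicate 3 alone standing for Egfr fl/fl, the sign turned for Cbx5 (0.45), Chd4 (-0.018), Ezh2 (0.040), Hdac5 (-0.18), Hmgb2 (0.27) and Smarca4 (-0.028). With the mean of a gene's probes Chd4 turned to -0.22. The same lone array gave 4 probes higher and 9 lower, 4 genes higher and 6 lower, and 9 other chromatin genes higher. Array weights gave 25 probes higher and 25 lower, 22 genes higher and 18 lower, 37 other chromatin genes higher and 25 lower, and 6992 called among all tested probes, against 4603 in the comparison reported. A detection p under 0.01 on all 6 arrays left 7 genes lower, with fewer genes tested.

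Leaving out 1 array at a time gave 8 to 23 probes higher and 8 to 23 lower, and 7 to 20 genes higher and 5 to 16 lower. Of other chromatin genes, 9 to 32 were higher and 9 to 20 lower. Without Egfr fl/fl replicate 3, 50.4% of all tested probes were called, against 21.6% higher and 18.2% lower in the comparison reported. Such shares are not given for the other runs, so the counts by run are not read as a trait of the chromatin genes. The arrays that moved a count by over 1.5 times were Met fl/fl replicates 2 (9 probes lower, 7 genes higher, 6 lower, 9 other chromatin genes higher) and 3 (8 probes lower, 5 genes lower, 10 other chromatin genes higher) and Egfr fl/fl replicates 1 (10 other chromatin genes higher, 9 lower), 2 (6 genes lower) and 3 (23 probes in each direction, 20 genes higher, 32 other chromatin genes higher). Except where fewer genes or arrays were tested, the cause was not tested. Same-numbered samples deviated together with correlations of 0.24, -0.14 and 0.32 for numbers 1, 2 and 3, so the numbers were not shown to pair the samples. With the replicate block 17 genes were higher and 15 lower, again with no share of all tested genes beside them. No setting moved the median of all tested probes by over 0.1. Dim probes are limited by signal over background, and 3 arrays per genotype limit the precision.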
